A study of Mus musculus with 6 samples.

Results

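The genes followed here build the contractile apparatus of the skeletal muscle fibre, move its calcium and feed it with energy. There were 34 of them among the 12436 genes listed in each library, and they were chosen by symbol, with earlier results of these data known. By role they comprised 7 genes of the thin filament, 3 of the thick filament, 7 of the Z-disc and scaffold, 5 of calcium handling, 8 of energy and oxygen supply, and 4 others. All 34 had at least 1 UMI (unique molecular identifier, the tag that marks a captured RNA molecule) in myocyte-like cells, and each was also counted in cell types that should not make it.

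The libraries came from tibialis anterior muscle (TAM) of male mice aged 3 to 5 months, all B6;129 animals that carried the Gt(ROSA)26Sor<tm1(Fucci2aR)Jkn cell cycle reporter allele, controls included. Per the methods, mice for sequencing had no Cre, the recombinase that switches the reporter on. Hypothyroid mice ate an iodine-deficient diet with 0.15% propylthiouracil (PTU), a drug that blocks thyroid hormone synthesis, and control mice ate the matched diet without it. The right TAM was injected with cardiotoxin at 50 µg/ml, and muscle was taken before injury (NI) or 5 or 14 days after it (dpi). Each of the 6 combinations was 1 library of 3 pooled mice, so differences between conditions could not be tested, and every interval given covers counting error only.

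In a fast muscle such as TAM, actin, tropomyosin and troponin form the thin filament, myosin with its light chains forms the thick filament, and calcium released through the ryanodine receptor starts contraction. The pump SERCA1 returns calcium to the store, parvalbumin buffers it in the cytosol, and the small membrane peptide sarcolipin inhibits the pump. Thyroid hormone is known to favour fast fibre genes over their slow counterparts. Fibres are far larger than a droplet, so a cell suspension holds few intact ones, while RNA from broken fibres can enter droplets that hold other cells.

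Promoter sequences are shown for 5 genes on whose values the results below turn, to let the start regions of highly expressed fast fibre genes be compared with that of the cardiac actin gene *Actc1*. They are the 250 bases before the start farthest upstream, 5′ to 3′ on the gene's strand, from RefSeq on build GRCm38.p6. Capitals mark 4 motifs searched on both strands: the E-box CANNTG, the TATA box TATAAA, the CArG box and the MEF2 site, of which the last 3 may overlap each other. *Acta1* and *Mylpf* encode skeletal actin and the fast regulatory light chain, *Ckm* muscle creatine kinase, and *Pvalb* parvalbumin.
Acta1, chr8:123894776-123895025, minus strand: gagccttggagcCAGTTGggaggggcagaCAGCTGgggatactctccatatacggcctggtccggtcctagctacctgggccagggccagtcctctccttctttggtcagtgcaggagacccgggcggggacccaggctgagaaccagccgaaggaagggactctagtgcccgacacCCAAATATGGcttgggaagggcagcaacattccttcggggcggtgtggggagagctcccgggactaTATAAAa
Mylpf, chr7:127211358-127211607, plus strand: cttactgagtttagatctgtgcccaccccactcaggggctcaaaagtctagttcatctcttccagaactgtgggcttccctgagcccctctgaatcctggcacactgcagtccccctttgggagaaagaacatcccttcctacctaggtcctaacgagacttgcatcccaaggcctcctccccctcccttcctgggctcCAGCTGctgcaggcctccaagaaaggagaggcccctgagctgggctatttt
Ckm, chr7:19410844-19411093, plus strand: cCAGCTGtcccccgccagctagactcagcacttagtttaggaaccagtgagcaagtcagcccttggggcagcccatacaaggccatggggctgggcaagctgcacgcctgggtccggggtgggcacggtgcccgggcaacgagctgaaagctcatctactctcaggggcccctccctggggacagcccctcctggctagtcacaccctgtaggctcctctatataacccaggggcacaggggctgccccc
Pvalb, chr15:78206401-78206650, minus strand: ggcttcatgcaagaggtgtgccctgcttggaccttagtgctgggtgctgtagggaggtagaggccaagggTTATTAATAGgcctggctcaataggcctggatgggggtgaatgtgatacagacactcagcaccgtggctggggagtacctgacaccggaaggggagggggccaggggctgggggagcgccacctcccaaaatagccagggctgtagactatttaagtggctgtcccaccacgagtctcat
Actc1, chr2:114052876-114053125, minus strand: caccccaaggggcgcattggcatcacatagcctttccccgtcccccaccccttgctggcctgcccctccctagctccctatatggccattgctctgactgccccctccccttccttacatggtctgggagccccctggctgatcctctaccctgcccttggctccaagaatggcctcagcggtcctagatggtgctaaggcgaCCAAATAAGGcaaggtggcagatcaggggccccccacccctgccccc

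In these windows *Acta1* held 2 E-boxes, a CArG box 73 to 64 bases before the start and a TATA box 7 to 2 bases before it. The *Actc1* window held a CArG box 47 to 38 bases before the start, *Mylpf* and *Ckm* held 1 E-box each, and *Pvalb* held a MEF2 site. Entries were found for 25 members, and *Actn3*, *Car3*, *Myoz1*, *Neb*, *Sln*, *Tcap*, *Tnni2*, *Tnnt3* and *Txlnb* had no match. Of the 25, 19 held an E-box (76%, against 66.1% of 27025 genes), 5 a TATA box (20%, against 12.98%), 3 a CArG box (12%, against 1.41%, *Acta1*, *Actc1* and *Ldb3*) and 4 a MEF2 site (16%, against 3.03%, *Pgam2*, *Ppp1r3a*, *Pvalb* and *Ttn*). A match describes letters in a window and no match says only that these letters were not in it.

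Across the 6 libraries 11207 cells were used, with between 2283739 and 23496529 UMIs a library and a median of 3634 to 8055 UMIs a cell. The deposited files hold further columns beyond a restart of the alphabetical barcode order, and 1680 columns stand unchanged in the file of another group: the later columns of the control NI file are 1152 cells of the hypothyroid 14 dpi library, and those of the hypothyroid NI file are 528 cells of the control 5 dpi library. Only the columns before the restart were used, libraries shared 0 to 6 barcodes with the others, and whether each belongs to its labelled condition could not be checked. Myocyte-like cells were found by clustering without the 34 genes and carried 18 other fibre markers, such as *Myh4*, the fast IIb myosin, at 11525 to 18265 CPM in all (UMIs of a gene scaled to the same total in every pool of cells; 3′ UMIs count molecules, so no length scaling was applied) in NI and 14 dpi libraries and 1735 to 3375 CPM at 5 dpi. They numbered 42, 19 and 75 in the control libraries at NI, 5 dpi and 14 dpi, and 66, 7 and 18 in the hypothyroid ones, so the 5 dpi values and the hypothyroid 14 dpi values rest on fewer than 20 cells. At 5 dpi myogenic progenitor markers (9 genes) summed to 3464 CPM in the control and 4787 CPM in the hypothyroid pool, above the 18 fibre markers. Mural markers (8 genes) summed to 1833 and 3920 CPM there, and granulocyte markers (3 genes) to 1032 and 0 CPM. The 5 dpi pools thus did not carry the markers of myocytes alone.

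The 34 genes made up a like share of the RNA of control myocyte-like cells before injury and at 14 dpi, while in hypothyroid cells they made up more than in control before injury and less at 14 dpi. Their summed share of UMIs was 26.2% in control NI, 6.12% at 5 dpi and 26.1% at 14 dpi. In hypothyroid cells it was 34.9%, 4.19% and 18.3%. The hypothyroid-to-control ratio was 1.33 (95% counting interval 1.31 to 1.35) uninjured, 0.685 (0.648 to 0.724) at 5 dpi and 0.6998 (0.689 to 0.711) at 14 dpi. From NI to 14 dpi the sum in control cells was 0.996 times its starting level (0.984 to 1.01), and in hypothyroid cells 0.524 times (0.516 to 0.533). These directions changed with the cells called myocyte-like. With 30 principal components the 14 dpi shares were 26.2% in control and 29.1% in hypothyroid cells (ratio 1.11), and in cells chosen by 4 myocyte markers the uninjured shares were 12.4% and 12.2% (0.985). At 5 dpi the hypothyroid share was the higher one with the 34 genes kept in the clustering (3.26% and 6.36%), with 30 principal components (6.497% and 9.80%) and at resolution 0.6 (6.03% and 7.91%), on 5 to 8 hypothyroid cells. The size of the hypothyroid fall from NI to 14 dpi varied too. Shares were 36.6% and 9.50% with the 34 genes kept in the clustering, and 35.0% and 29.1% with 30 principal components. Within a single subcluster they were 34.1% (35 cells) and 32.3% (5 cells).

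Cell by cell, the share ranged from 9.86% to 38.2% in control NI (median 25.9%) and from 21.5% to 49.1% in hypothyroid NI (median 34.1%). At 14 dpi the range was 9.91% to 53.0% in control cells (median 25.2%) and 1.61% to 47.3% in hypothyroid cells (median 21.3%), so the cells of the diets overlapped widely on both days. Subclusters of the myocyte-like cells also differed: that led by *Actc1*, *Myl4* and *Sln* held 60 of 75 control and 12 of 18 hypothyroid cells at 14 dpi, and within it the share was 26.2% and 12.0%. Markers of other cell types in the pools moved with diet as well. Myogenic progenitor markers (9 genes) summed to 458 CPM (control) and 2389 CPM (hypothyroid) in the 14 dpi pools, endothelial markers (8 genes) to 220 and 1593 CPM, and mural markers (8 genes) to 346 and 1182 CPM. FAP markers (10 genes) went the other way there, with 3208 CPM in the control and 197 CPM in the hypothyroid pool, and the other 6 lists of non-muscle markers had at most 213 CPM. Uninjured, mural markers summed to 1547 and 29.9 CPM in the control and hypothyroid pools, and FAP markers to 1848 and 255 CPM. Mural markers were thus higher in the control pool before injury and in the hypothyroid pool at 14 dpi. The part of subclusters and markers in the results was not tested.

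**Figure D1:**
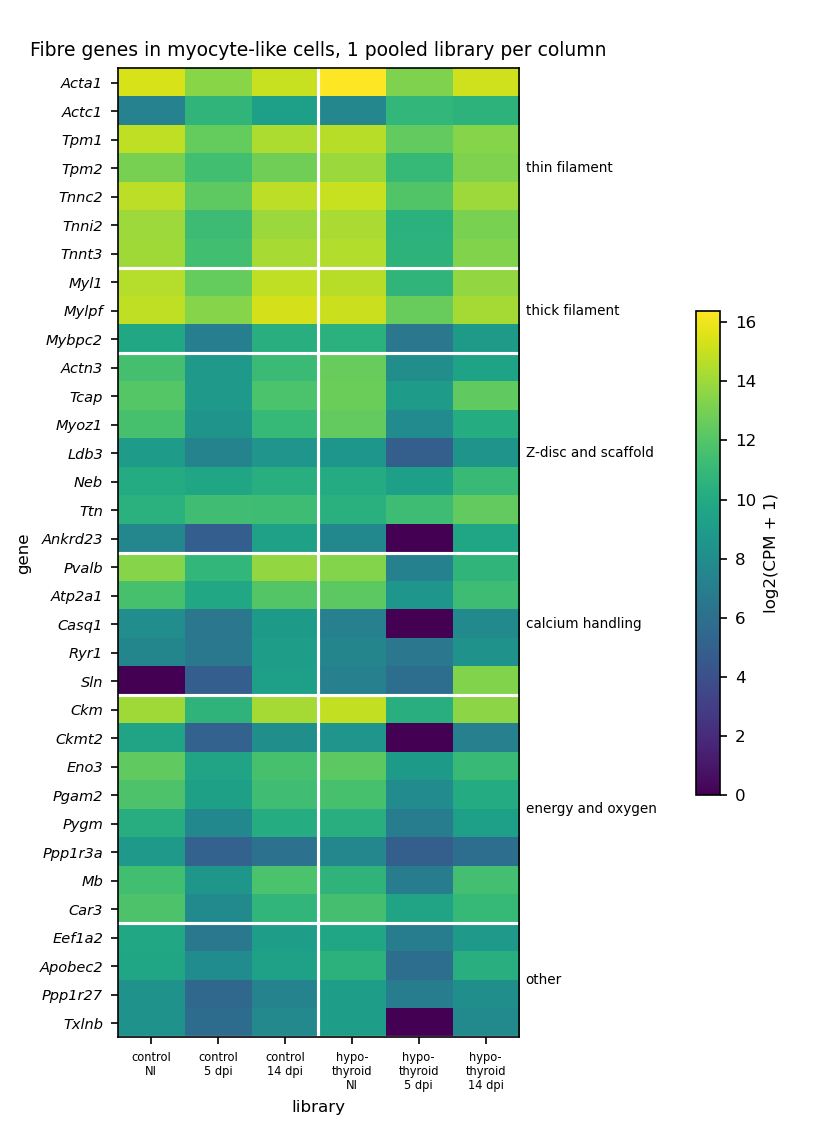
Level of each of the 34 genes in myocyte-like cells of the 6 libraries, grouped by role, as colour on a log2(CPM + 1) scale from dark (low) to yellow (high), with the 3 control libraries to the left of the 3 hypothyroid ones. *Sln* is brightest in hypothyroid 14 dpi (10155 CPM) and darkest in control NI (0 UMIs), and most genes are darker at 5 dpi than at NI or 14 dpi.

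The thin filament genes encode actins (*Acta1*, skeletal, and *Actc1*, cardiac), tropomyosins (*Tpm1*, *Tpm2*) and the fast troponin subunits (*Tnnc2*, *Tnni2*, *Tnnt3*). *Acta1* stood at 43803, 11516 and 32730 CPM in control myocyte-like cells at NI, 5 dpi and 14 dpi, and at 85959, 9365 and 38343 CPM in hypothyroid cells. The hypothyroid NI library was the highest and both 5 dpi libraries the lowest, and the ratio of diets was 1.96 (1.90 to 2.02) uninjured and 1.17 (1.13 to 1.21) at 14 dpi. The 14 dpi ratio was 0.761 (0.727 to 0.796) without the cell of each pool with the most *Acta1* UMIs, a choice made after the data were seen, so its direction rests on those cells. *Tpm2* followed the same order uninjured, with 8524 CPM under the control diet and 15461 CPM under PTU (ratio 1.81, 1.69 to 1.94), and *Tpm1* did not, at 29095 and 25172 CPM (0.865, 0.827 to 0.905). At 14 dpi *Tpm1* was at 21610 and 10917 CPM, a ratio of 0.505 (0.475 to 0.537), just inside the 2-fold limit used below. The 3 troponin subunits had ratios of 1.17 to 1.36 uninjured and of 0.518 to 0.5995 at 14 dpi.

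*Actc1*, the actin of heart and of immature skeletal muscle, stood at 153, 1675 and 599 CPM in control cells at NI, 5 dpi and 14 dpi, and at 187, 1825 and 1516 CPM in hypothyroid cells. It was highest in both diets at 5 dpi, in pools that also held progenitor and mural markers, the reverse of *Acta1*. The ratio at 14 dpi was 2.53 (2.04 to 3.15), but the gene was seen in 6 of 18 hypothyroid cells, 1 cell held 48.6% of its UMIs there, and the ratio was 1.75 (1.33 to 2.30) without the cell of each pool that held the most. It turned to 0.0643 when the 34 genes were kept in the clustering and to 0.272 with 30 principal components, so its direction at 14 dpi changed with the cells called myocyte-like. *Acta1* and *Actc1* are near-identical in their coding sequence, and reads could have been split between them.

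*Mylpf*, *Myl1* and *Mybpc2* encode the regulatory light chain, an essential light chain and the fast myosin-binding protein C of the thick filament. *Mylpf* stood at 29556, 10976 and 41904 CPM in control and at 34575, 6224 and 18872 CPM in hypothyroid cells at NI, 5 dpi and 14 dpi. Uninjured levels lay close together and the 14 dpi levels apart, with ratios of 1.17 (1.12 to 1.22) and 0.450 (0.430 to 0.471). *Myl1* had 24236 and 25441 CPM uninjured and 28388 and 13803 CPM at 14 dpi, ratios of 1.05 (1.002 to 1.10) and 0.486 (0.461 to 0.513). *Mybpc2* went from 882 and 1385 CPM uninjured to 1227 and 480 CPM at 14 dpi, where the ratio was 0.391 (0.289 to 0.520). All 3 genes of the thick filament were thus more than 2-fold lower in hypothyroid cells at 14 dpi, and none was lower uninjured. With 30 principal components in the clustering their 14 dpi ratios were 0.708 to 0.802 (*Mybpc2*, *Myl1* and *Mylpf*), below 1 and inside 2-fold.

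*Actn3*, the alpha-actinin of fast fibre Z-discs, changed direction between the days. Control cells had 2954, 442 and 2266 CPM at NI, 5 dpi and 14 dpi, and hypothyroid cells 6050, 269 and 719 CPM. The hypothyroid NI library was the highest and, of the libraries other than 5 dpi, the hypothyroid 14 dpi library the lowest. The ratio was 2.05 (1.82 to 2.30) uninjured and 0.317 (0.2496 to 0.399) at 14 dpi, and the uninjured value was 1.90 (1.67 to 2.16) without the cell of each pool with the most UMIs. Whether the ratios of the days differ was not tested.

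*Ttn*, the giant spring that spans the sarcomere from Z-disc to M-line, stood at 1400, 2678 and 2537 CPM in control and at 1363, 2543 and 5617 CPM in hypothyroid cells at NI, 5 dpi and 14 dpi. Only the hypothyroid 14 dpi library stood above the others, with a ratio to control of 2.21 (1.99 to 2.47). With the 34 genes kept in the clustering the ratio was 0.766, and at a finer clustering resolution 0.642. With all columns of each file, which adds cells of unknown condition, it was 0.825. *Neb*, the thin filament ruler nebulin, had 1094 and 1078 CPM uninjured and 1223 and 2072 CPM at 14 dpi (ratio 1.69, 1.43 to 2.003). *Myoz1*, a calcineurin-binding protein of the Z-disc, had 3185 and 5540 CPM uninjured (1.74, 1.55 to 1.95) and 2061 and 1139 CPM at 14 dpi (0.553, 0.454 to 0.669), an order of diets that turned over between the days as for *Actn3*. *Tcap*, the titin cap, was higher in hypothyroid cells on both days at ratios of 1.56, below 2-fold. *Ankrd23*, a titin-associated ankyrin repeat protein, was 3.46 times (2.34 to 5.28) its NI level at 14 dpi in control cells and 3.90 times (2.51 to 6.23) in hypothyroid cells, and *Ldb3* stayed inside 2-fold.

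*Sln*, which encodes sarcolipin, showed the largest ratio of the 34 genes at 14 dpi. It had 0 UMIs in control NI, where 3 UMIs would be 19.2 CPM, then 29.5 CPM at 5 dpi (6 UMIs) and 599 CPM at 14 dpi (166 UMIs). Hypothyroid cells had 142 CPM uninjured (19 UMIs), 59.8 CPM at 5 dpi (2 UMIs) and 10155 CPM at 14 dpi (1186 UMIs). At 14 dpi the hypothyroid level was 17.0 times the control level (14.4 to 20.1), and over 12 alternative settings the ratio ran from 6.41 to 686. A UMI of *Sln* was found in 17 of 18 hypothyroid cells (94.4%) and in 13 of 75 control cells (17.3%), and 1 cell held 59.6% of the control UMIs and 1 cell 29.3% of the hypothyroid UMIs. Without these cells the ratio was 35.6 (27.7 to 46.3), and within the *Actc1*, *Myl4* and *Sln* subcluster, where *Sln* was itself a leading gene, it was 11.2 (9.37 to 13.3). Uninjured, the hypothyroid level was at least 7.42-fold higher, taken against 3 UMIs in the control pool, on fewer than 20 UMIs in the 2 pools together.

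*Pvalb* moved the other way. Parvalbumin was at 10916, 1862 and 13570 CPM in control and at 10347, 150 and 1721 CPM in hypothyroid cells at NI, 5 dpi and 14 dpi. Uninjured libraries lay together (ratio 0.948, 0.882 to 1.02), while at 14 dpi the hypothyroid level was 0.127 times the control level (0.1095 to 0.146). It was found in 75 of 75 control and 12 of 18 hypothyroid cells at 14 dpi, and over 12 alternative settings the ratio ran from 0.0175 to 0.283. *Atp2a1*, which encodes the SERCA1 pump that sarcolipin inhibits, had 3095 and 4956 CPM uninjured (1.60, 1.42 to 1.80) and 4147 and 2535 CPM at 14 dpi (0.611, 0.536 to 0.695). *Casq1*, the calcium-binding protein of the store, had a ratio of 0.439 (0.275 to 0.677) at 14 dpi. *Ryr1*, the release channel, had 0.589 (0.402 to 0.845) and stayed inside 2-fold.

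**Figure D2:**
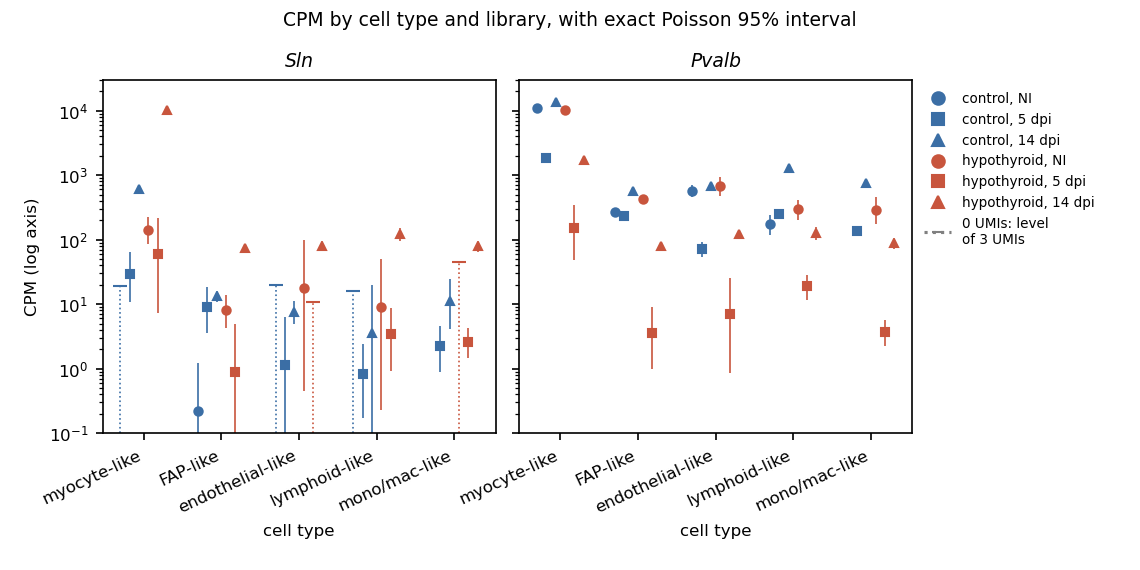
*Sln* and *Pvalb* in CPM on a log axis, by cell type and library, with 95% counting intervals as bars, pools of under 5 cells left out, and a pool with 0 UMIs drawn as a dotted line up to the level of 3 UMIs. Triangles stand for 14 dpi: in each of the 5 types shown the hypothyroid triangle lies above the control one for *Sln* (10155 against 599 CPM in myocyte-like cells) and below it for *Pvalb* (1721 against 13570 CPM).

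Of the 8 energy and oxygen genes, 5 had ratios below 1 at NI and at 14 dpi, *Ckm* and *Pygm* were above 1 only uninjured and *Car3* only at 14 dpi. *Ckm*, which regenerates ATP from phosphocreatine, stood at 16850, 1626 and 18824 CPM in control and at 29761, 1287 and 11696 CPM in hypothyroid cells at NI, 5 dpi and 14 dpi. Its diet order turned over, with ratios of 1.77 (1.68 to 1.86) uninjured and 0.621 (0.585 to 0.660) at 14 dpi. *Ckmt2*, the mitochondrial creatine kinase, was lower in hypothyroid cells on both days, at 755 and 367 CPM uninjured (0.486, 0.341 to 0.684) and 282 and 137 CPM at 14 dpi (0.487, 0.265 to 0.841). *Ppp1r3a*, a glycogen-targeting phosphatase subunit, had 448 and 195 CPM uninjured (0.435, 0.266 to 0.691) and 72.2 and 59.9 CPM at 14 dpi, which rests on 20 and 7 UMIs. *Pgam2*, muscle phosphoglycerate mutase, went from a ratio of 0.873 (0.768 to 0.992) uninjured to 0.413 (0.340 to 0.499) at 14 dpi. The glycolytic enolase *Eno3* had ratios of 0.900 and 0.674 and glycogen phosphorylase *Pygm* 1.05 and 0.536, all inside 2-fold. Myoglobin (*Mb*) and the carbonic anhydrase *Car3* had ratios of 0.575 and 0.832 uninjured and of 0.841 and 1.16 at 14 dpi.

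The other 4 genes were the muscle elongation factor *Eef1a2*, the deaminase family member *Apobec2*, the phosphatase subunit gene *Ppp1r27* and *Txlnb*, a muscle taxilin. None passed 2-fold between diets at NI or 14 dpi. *Apobec2* came nearest, at 671 and 1319 CPM at 14 dpi (ratio 1.96, 1.58 to 2.45), just inside the limit, as *Acta1* did uninjured.

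Read across the roles, uninjured hypothyroid myocyte-like cells differed from control in few of these genes by 2-fold or more. A gene was counted where the 2 pools together held at least 20 UMIs, and was called where the ratio was at least 2-fold and its 95% counting interval left out 1. Of 33 members counted, *Actn3* was higher, *Ckmt2* and *Ppp1r3a* were lower and 30 were neither, beside 2.25% of 1647 genes higher and 12.1% lower. The median ratio was 1.05 over the members and 0.878 over all genes counted. By role the median was 1.25 for the thin filament, 1.17 for the thick filament, 0.955 for calcium handling, 0.852 for energy and oxygen, and 1.66 for the other 4 genes. With ratios divided by the median of all genes, 4 members were higher (*Actn3*, *Acta1*, *Tpm2* and *Ckm*) and 1 lower.

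At 5 dpi the pools held 19 control and 7 hypothyroid cells, with markers of other types too, and 27 members could be counted. *Car3* was higher in hypothyroid cells, at 221 and 748 CPM (3.38, 1.99 to 5.64), beside 7.26% of all genes. *Myl1*, *Pvalb*, *Atp2a1*, *Pgam2*, *Mb* and *Apobec2* were lower, with ratios of 0.0803 to 0.435, beside 6.22% of all genes. *Pvalb* had 379 control and 5 hypothyroid UMIs, while *Acta1*, *Tpm1*, *Ttn* and *Actc1* had ratios of 0.813 to 1.09. The median was 0.667 over the members and 0.899 over all genes counted.

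At 14 dpi *Actc1*, *Ttn* and *Sln* were higher in hypothyroid cells, 3 of 34 members beside 11.7% of 2306 genes, fewer than the background share. *Myl1*, *Mylpf*, *Mybpc2*, *Actn3*, *Pvalb*, *Casq1*, *Ckmt2* and *Pgam2* were lower, 8 of 34 beside 8.59% of all genes. The median was 0.648 over the members and 0.995 over all genes counted, and the ratio was below 1 in 22 members. By role the median was 0.5995 for the thin filament, 0.450 for the thick filament, 1.19 for the Z-disc and scaffold, 0.589 for calcium handling and 0.648 for energy and oxygen. A hypothyroid cell with many UMIs weighed on these sums, since 1 cell held 46.5% of the *Acta1*, 48.3% of the *Pvalb* and 61.2% of the *Mb* UMIs (the shares of a single cell in the control pool were 6.19% and 6.17% for *Acta1* and *Pvalb*). Without the cell of each pool with the most UMIs of a gene, 14 members were lower, with *Tpm1*, *Tnni2*, *Tnnt3*, *Myoz1*, *Ckm* and *Mb* added at ratios of 0.333 to 0.479. Within the subcluster that held most cells of both libraries 20 were lower. Other choices of cells gave the opposite balance, with 6 higher and 2 lower with 30 principal components and 5 higher and 1 lower in cells chosen by 4 myocyte markers.

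**Figure D3:**
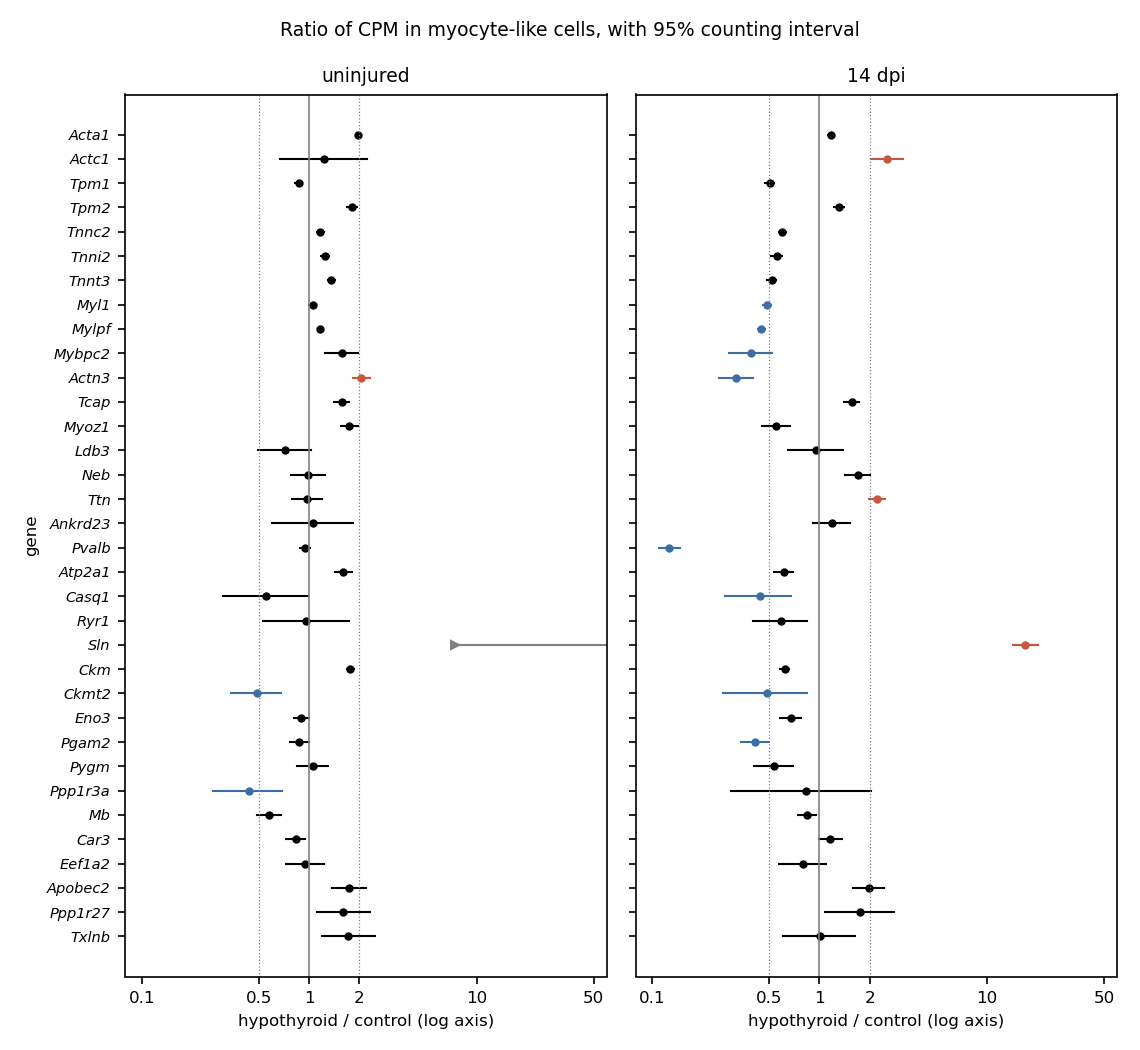
Hypothyroid-to-control ratio of each of the 34 genes in myocyte-like cells, NI (left) and 14 dpi (right), on a log axis with 95% counting intervals and dotted lines at 0.5 and 2. Called genes are red (higher) or blue (lower), an arrow marks the lower bound of *Sln* uninjured, and at 14 dpi *Sln* lies at 17.0 and *Pvalb* at 0.127.

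Slow or cardiac partners of the same proteins were counted beside the members, 9 genes that were chosen with earlier results of these data known. At 14 dpi 5 of 6 counted were higher in hypothyroid cells and none lower, beside 11.7% and 8.59% of all genes, with a median ratio of 3.25. *Tnni1*, the slow troponin I, had a control level of 43.3 CPM and a hypothyroid level of 462 CPM (10.7, 5.64 to 21.9), against 0.554 (0.517 to 0.594) for its fast counterpart *Tnni2*. *Actn2*, the actinin of all fibres and heart, had 177 and 685 CPM (3.87, 2.68 to 5.65), and *Mybpc1*, the slow myosin-binding protein, 401 and 1053 CPM (2.63, 2.02 to 3.43). The slow pump gene *Atp2a2* (2.504, 1.24 to 5.06) and the slow fibre gene *Myoz2* (4.61, 2.54 to 8.65) were higher on 19 and 35 hypothyroid UMIs. Uninjured, 3 could be counted and *Myoz2* was higher (4 against 40 UMIs), beside 2.25% of all genes, while *Tnni1* had 0 UMIs in both pools.

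Of 40 other fibre genes, 39 were counted at 14 dpi, 4 higher and 5 lower, near the 11.7% and 8.59% of all genes, with a median of 0.791. Embryonic myosin *Myh3* had 0 control and 192 hypothyroid UMIs (at least 152-fold higher, against 3 UMIs) and perinatal *Myh8* 4 and 186 (110-fold, 42.4 to 409). The IIb myosin *Myh4* had 7337 and 1533 CPM (0.209, 0.178 to 0.243), and the IIx myosin *Myh1* 1411 and 1096 CPM (0.777, 0.631 to 0.951). *Lmod3* and *Xirp1* were the others higher, and *Cacna1s*, *Cox7a1*, *Phkg1* and *Xirp2* the others lower. Uninjured, 35 were counted, with *Trdn* and *Srl* higher, *Jph1*, *Lmod2* and *Mylk2* lower, beside 2.25% and 12.1% of all genes, and *Myh4* at 4463 and 2665 CPM (0.597, 0.524 to 0.679).

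Over time within a diet, control myocyte-like cells at 14 dpi lay near their NI levels for most members. *Actc1* (3.90, 2.53 to 6.27), *Ankrd23* and *Ryr1* (3.08, 2.05 to 4.79) were higher, and *Sln* was at least 31.2-fold higher, against 3 UMIs at NI, beside 9.94% of 2484 genes. *Ckmt2* (0.373), *Ppp1r3a* (0.161), *Car3* (0.494) and *Ppp1r27* (0.470) were lower, beside 11.6% of all genes, and the median was 0.964 over the members and 0.921 over all genes. In hypothyroid cells *Actc1* (8.10, 5.31 to 12.9), *Ttn* (4.12, 3.49 to 4.88), *Ankrd23* and *Sln* (71.4, 45.5 to 119) were higher, beside 24.0% of 1452 genes. There 15 members were lower, beside 17.3% of all genes, among them *Actn3* (0.119, 0.0938 to 0.149), *Pvalb* (0.166, 0.143 to 0.193), *Myoz1* (0.206, 0.170 to 0.248), *Ckm* (0.393, 0.369 to 0.418) and *Acta1* (0.446, 0.431 to 0.462). The median was 0.511 over the members and 1.01 over all genes. The count of lower members ran from 3 with 30 principal components, 5 within 1 subcluster and 9 at resolution 0.6 to 25 with the 34 genes kept in the clustering. These comparisons over time share their libraries with the comparisons between diets.

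In myogenic progenitor-like cells, the stem cells and myoblasts that come before the fibre, fibre genes were lower in the hypothyroid 5 dpi library, as they were in several cell types that should lack them. The pools held 93 control and 185 hypothyroid cells, with the 34 genes at 0.341% and 0.203% of UMIs, a ratio of 0.596 (0.572 to 0.621). The same sum had ratios of 0.325 in lymphoid-like, 0.232 in FAP-like and 0.270 in monocyte/macrophage-like cells on that day, and in lymphoid-like cells those of *Acta1* and *Pvalb* were 0.367 and 0.0761. Of 23 members counted none was higher and 15 were lower, beside 2.53% and 11.3% of 9535 genes, with a median of 0.378 over the members and 0.793 over all genes counted. *Ttn* stood at 492 and 172 CPM (0.350, 0.309 to 0.396), *Acta1* at 242 and 56.6 CPM (0.234, 0.192 to 0.285), and *Pvalb* at 56.4 and 3.09 CPM (0.0547, 0.0239 to 0.111). The tropomyosins, which non-muscle cells also make, did not pass 2-fold: *Tpm1* had 1201 and 1036 CPM (0.862, 0.808 to 0.920) and *Tpm2* 200 and 262 CPM (1.31, 1.13 to 1.53).

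The proportions of the members in the progenitor pools at 5 dpi were not those of lymphoid-like cells, which should make none of the muscle-specific ones. Taken against lymphoid-like cells of the same library, 9 members made up a more than 2-fold larger share of the member UMIs in control progenitors at 5 dpi, *Actc1*, *Tpm1*, *Tpm2*, *Actn3*, *Neb*, *Ttn*, *Ryr1*, *Eno3* and *Txlnb*, and 14 a smaller one. *Ttn* was 14.4% of member UMIs there and 0.739% in lymphoid-like cells, a ratio of 19.5 (15.5 to 24.99), and *Neb* 3.23% and 0.191% (16.9, 10.6 to 28.3). In hypothyroid progenitors at 5 dpi 5 of 19 members made up a larger share and 9 a smaller one, with *Ttn* at 8.47% and 4.25%, a ratio of 1.996 (1.49 to 2.73) that did not pass 2-fold, and *Neb* at 3.73% and 0.347% (10.8, 4.14 to 39.9). The lymphoid-like *Ttn* share there rests on 49 UMIs. It was above those of FAP-like (1.25%), endothelial-like (0.219%) and monocyte/macrophage-like cells (2.57%) of that library, so the ratio depends on the type used as reference. At 14 dpi 2 of 26 members, *Neb* and *Ttn*, made up a larger share in control progenitors. In hypothyroid ones they were *Tpm1* and *Ttn*, 2 of 23, and neither diet had a member with a smaller share past 2-fold. The make-up thus lay nearer that of lymphoid-like cells than at 5 dpi. At 14 dpi 94 control and 52 hypothyroid progenitor-like cells gave 24 members counted, 20 lower and only *Sln* higher (9.94, 3.62 to 38.1), beside 6.30% and 4.26% of 5380 genes, and there *Ttn* was at 233 and 199 CPM (0.852, 0.640 to 1.13). The UMIs of fibre genes in other cell types, described next, moved the same way at 5 and 14 dpi, and their part in these counts was not tested.

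Cell types that should lack fibre genes also carried their UMIs, here called free RNA. In FAP-like cells (fibro-adipogenic progenitors, the stromal cells of muscle) the 34 genes made up 0.480%, 0.338% and 1.35% of UMIs in control NI, 5 dpi and 14 dpi, and 1.63%, 0.0784% and 0.406% in the hypothyroid libraries. Lymphoid-like cells had 0.496%, 0.304% and 2.57% in control and 1.41%, 0.0987% and 0.665% in hypothyroid libraries. The pattern was alike in both types: hypothyroid was above control uninjured and below it at both later times, and 5 dpi was the lowest time in each diet. As a share of the myocyte-like level of the same library, FAP-like cells carried 1.83%, 5.52% and 5.16% in control and 4.67%, 1.87% and 2.22% in hypothyroid libraries.

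The ratio of diets in the summed level was 3.39 (3.33 to 3.45) in FAP-like cells, 2.85 (2.63 to 3.10) in lymphoid-like cells and 2.18 (2.08 to 2.28) in endothelial and mural cells together before injury. At 5 dpi it was 0.232 (0.215 to 0.2504) in FAP-like cells, 0.325 (0.306 to 0.346) in lymphoid-like cells, 0.270 (0.259 to 0.282) in monocyte/macrophage-like cells and 0.886 (0.805 to 0.974) in endothelial and mural cells together. Taken apart, a choice made after the data were seen, endothelial-like cells had 1.13 (1.01 to 1.26) at 5 dpi and mural-like cells 1.02 (0.804 to 1.27) on 31 and 7 cells, so neither ratio was below 1. These 2 sums are not of muscle-specific genes alone, nor are those of FAP-like and monocyte/macrophage-like cells at 5 dpi. At 5 dpi *Tpm1* was 42.5% of endothelial-like member UMIs in control and 51.5% in hypothyroid libraries. In control mural-like cells *Tpm1* was 40.9% and *Tpm2* 25.1%. In monocyte/macrophage-like cells of that day *Tpm1* was 14.7% in control and 31.9% in hypothyroid libraries. *Car3* was 20.1% of member UMIs in hypothyroid FAP-like cells at 5 dpi. At 14 dpi the summed ratio was 0.301 in FAP-like, 0.259 in lymphoid-like and 0.2504 in monocyte/macrophage-like cells. It was 0.337 in endothelial and mural cells together and 0.320 in tenocyte-like cells. With all columns of each file the lymphoid-like ratio before injury was 0.660, below 1. That setting adds 1152 hypothyroid 14 dpi cells to the control NI library and 528 control 5 dpi cells to the hypothyroid NI one. It mixes conditions and is no check of the NI ratio. Myocyte-like cells were 3.65% of control and 12.5% of hypothyroid cells uninjured, 0.783% and 0.325% at 5 dpi, and 2.28% and 1.09% at 14 dpi, so on each day the library with the larger share of myocyte-like cells was the one with more fibre RNA in FAP-like and lymphoid-like cells. The part of that share in the result was not tested.

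**Figure D4:**
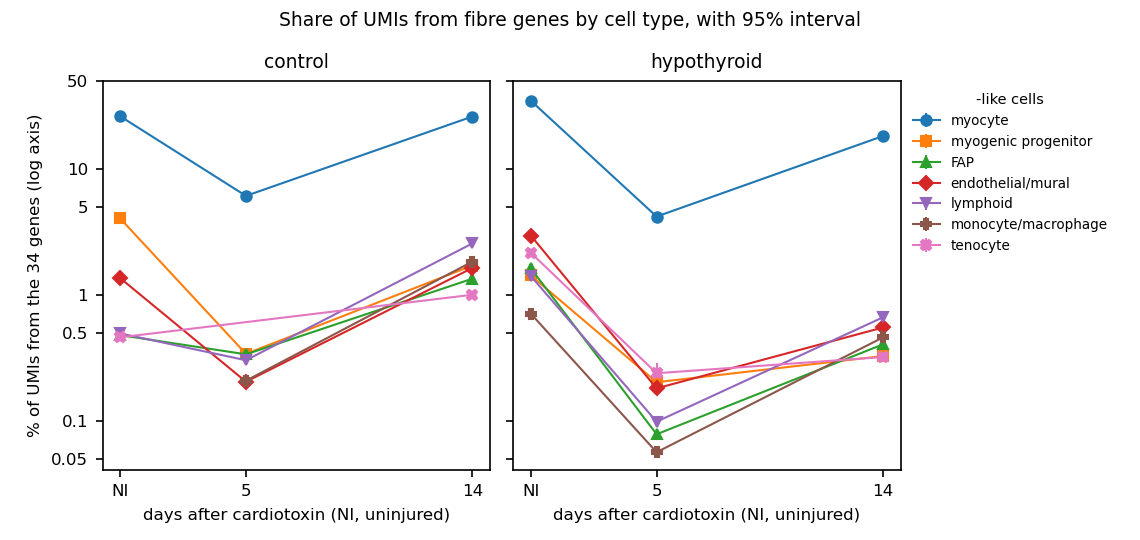
Share of UMIs from the 34 genes, in percent on a log axis with 95% counting intervals, against days after cardiotoxin, control left and hypothyroid right, with a line for each cell type and pools of fewer than 5 cells left out. The myocyte-like line is the highest in both panels, and the FAP-like line ends above its start in control (0.480% to 1.35%) and below it in hypothyroid libraries (1.63% to 0.406%).

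Within FAP-like cells 22 of 32 members counted were higher in the hypothyroid library uninjured, with none lower, beside 3.52% and 2.50% of 10129 genes. At 5 dpi 17 of 18 were lower and *Car3* was higher, beside 7.67% and 2.88% of 7182 genes, and at 14 dpi 31 of 34 were lower, with *Car3* and *Sln* higher, beside 6.31% and 1.40% of 11183 genes. The medians were 2.98, 0.191 and 0.261, against 1.002, 0.839 and 0.934 over all genes counted. In lymphoid-like cells 10 of 16 were higher and none lower uninjured (background 3.70% and 2.80%), none of 26 higher and 21 lower at 5 dpi (3.86% and 7.45%), and *Sln* higher and 21 of 25 lower at 14 dpi (3.97% and 4.20%). Monocyte/macrophage-like cells had 8 of 10 higher and none lower uninjured, in pools of 4 and 7 cells (9.71% and 7.22%), none of 26 higher and 18 lower at 5 dpi (8.18% and 19.8%), and *Sln* higher and 26 of 30 lower at 14 dpi (5.07% and 5.09%). Endothelial and mural cells had 14 of 22 higher and none lower uninjured (5.42% and 6.88%), *Car3* higher and *Pvalb* lower of 14 at 5 dpi (2.77% and 6.65%), and *Sln* higher and 25 of 33 lower at 14 dpi (1.75% and 5.56%). At 5 dpi the other 12 of 14 members of endothelial and mural cells did not pass the 2-fold rule, and the medians were 2.36, 0.792 and 0.349 at NI, 5 dpi and 14 dpi, against 0.969, 0.887 and 0.971 over all genes counted.

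The share of cells with a UMI followed the same order once each cell was thinned to 1000 UMIs, with 7 to 76 shallower FAP-like and 0 to 36 shallower lymphoid-like cells of a library left out at NI and 14 dpi. *Acta1* was then found in 42.0% (38.4 to 45.6) of control and 88.1% (84.0 to 91.5) of hypothyroid FAP-like cells uninjured, and in 73.0% (70.7 to 75.3) and 40.9% (37.5 to 44.4) at 14 dpi. In lymphoid-like cells, which should lack the gene, it was found in 66.7% (52.9 to 78.6) and 92.9% (76.5 to 99.1) uninjured and in 91.8% (84.5 to 96.4) and 72.7% (64.7 to 79.8) at 14 dpi. Without thinning the FAP-like shares were 87.6%, 99.7%, 99.0% and 95.9%, at median depths of 5592.5, 4383, 5586 and 9276 UMIs, and the lymphoid-like shares 93.0%, 100%, 100% and 96.9%, at 3032, 3079, 2066.5 and 3385.5 UMIs. The FAP-like shares did not exceed the lymphoid-like ones in any of these 4 libraries.

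Free RNA of a single source keeps its genes in 1 ratio in every cell type of a library, and the make-up of the member UMIs was compared on that basis. It overlapped that of myocyte-like cells by 95.1% in FAP-like cells and 91.5% in lymphoid-like cells of control NI, and by 95.8% and 93.9% in hypothyroid NI. At 14 dpi the overlap was 93.7% and 92.6% in control and 84.9% and 88.1% in hypothyroid libraries. At 5 dpi it was 85.6% and 84.5% in control and 71.6% and 82.8% in hypothyroid libraries. The myocyte-like pools of that day also carried markers of other types. Between FAP-like and lymphoid-like cells, none of 31 members in control NI and none of 28 in hypothyroid NI differed more than 2-fold in share. At 5 dpi *Neb* did so among 27 members in control, and *Car3*, *Ttn* and *Pvalb* among 14 in hypothyroid libraries. At 14 dpi *Sln* and *Txlnb* did among 33 in control, and *Car3* and *Ryr1* among 31 in hypothyroid libraries. In hypothyroid 14 dpi *Sln* was 5.56% of member UMIs in myocyte-like cells and 1.66% to 1.82% in FAP-like, endothelial-like, lymphoid-like, monocyte/macrophage-like and tenocyte-like cells, so *Sln* took a larger part of the member UMIs in myocyte-like cells than in the other types of that library.

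**Figure D5:**
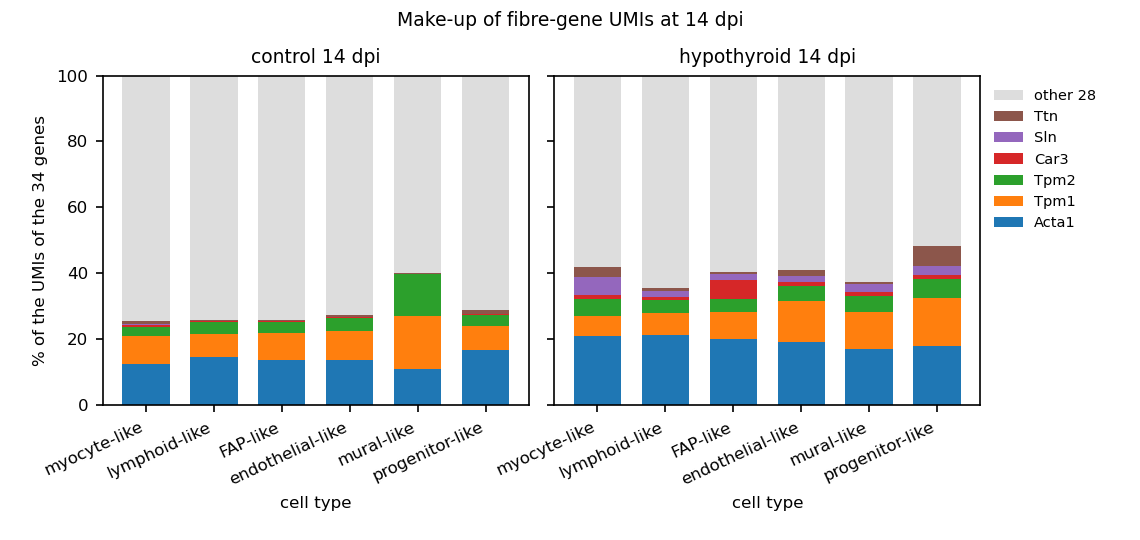
Make-up of the member UMIs at 14 dpi as stacked bars from 0 to 100%, by cell type, control left and hypothyroid right, with 6 genes in colour and the other 28 in grey. *Tpm1* and *Tpm2* are widest in control mural-like cells (16.1% and 12.6%), *Car3* in hypothyroid FAP-like cells (5.74%) and *Sln* in hypothyroid myocyte-like cells (5.56%).

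*Sln* was the member whose free RNA ran against the rest at 14 dpi. FAP-like cells had 13.2 CPM under the control diet and 73.0 CPM under PTU (5.51, 4.52 to 6.77), where the summed level had a ratio of 0.301. Lymphoid-like cells had 3.61 CPM (1 UMI) and 121 CPM (68 UMIs), a ratio of 33.6 with an interval of 5.83 to 1346, and monocyte/macrophage-like cells 11.3 and 78.3 CPM (6.95, 3.09 to 19.4). Endothelial-like cells had 7.62 and 79.1 CPM, mural-like cells 11.5 and 475 CPM, and tenocyte-like cells 3.20 and 55.2 CPM. The hypothyroid 14 dpi library had the highest measured level in each of these 6 types, and 1 cell held 28.6% of the UMIs in FAP-like and 66.7% in mural-like cells. *Pvalb* was lower there in each, with 573 and 79.0 CPM in FAP-like cells (0.138, 0.127 to 0.150) and 1295 and 126 CPM in lymphoid-like cells (0.0977, 0.0746 to 0.126). These non-muscle levels use other cells than the myocyte-like pools but the same libraries, so they are no replicate of them.

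*Car3* and the tropomyosins departed from the common make-up. *Car3* stood at 52.0, 30.8 and 29.2 CPM in control and at 102, 158 and 233 CPM in hypothyroid FAP-like cells at NI, 5 dpi and 14 dpi, while lymphoid-like cells of the hypothyroid libraries had 108, 5.99 and 53.4 CPM. Hypothyroid FAP-like cells thus stood above control at each time, and above lymphoid-like cells of their own library at 5 and 14 dpi, where *Car3* took 33.2 (15.8 to 83.8) and 7.15 (4.99 to 10.6) times the lymphoid-like share of member UMIs. However, 1 FAP-like cell held 78.5% of the 177 *Car3* UMIs at 5 dpi and 1 cell 46.2% of the 1776 at 14 dpi. *Car3*, besides its place in slow fibres, is abundant in fat cells.

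*Tpm1* and *Tpm2* are also tropomyosins of smooth muscle, and mural-like cells (pericytes and vascular smooth muscle) carried them beyond the fibre make-up. *Tpm2* stood at 4436, 1304 and 2759 CPM in control mural-like cells at NI, 5 dpi and 14 dpi, and at 5833, 1986 and 871 CPM in hypothyroid ones. Its share of member UMIs in the control libraries was 9.16 (6.40 to 13.6), 9.91 (8.27 to 11.9) and 3.33 (2.93 to 3.79) times that in lymphoid-like cells, and for *Tpm1* the ratios were 2.22, 3.41 and 2.30. In hypothyroid 14 dpi neither passed 2-fold (1.24, 0.942 to 1.63, and 1.67, 1.38 to 2.02) in 35 mural-like cells. The excess of *Tpm1* was not confined to mural-like cells. At 5 dpi its ratio to the lymphoid-like share was 3.55 in control and 4.61 in hypothyroid endothelial-like cells. It was 2.86 in monocyte/macrophage-like cells of hypothyroid 5 dpi. At NI and 14 dpi it did not pass 2-fold in endothelial-like cells. In hypothyroid 14 dpi it did so in myogenic progenitor-like cells (2.19, 1.82 to 2.63). It also did in tenocyte-like cells, where *Tpm1* was 20.8% of member UMIs, against 6.67% in lymphoid-like cells. With mural-like cells taken apart, the summed ratio at 14 dpi was 0.802 (0.764 to 0.842) in them and 0.317 (0.310 to 0.325) in endothelial-like cells.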

How the data were processed

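Single-cell 3′ RNA-seq was made from pools of 3 mice, 1 library per group. The submitters' processing notes name Cell Ranger, Partek and mm39. The files hold log2(CPM + 1) values per gene and cell, deposited by the authors after normalization. CPM per cell totalled 999975 to 1.00003e+06, and 99.934% of 39334018 values were whole multiples (within 0.05) of the value of 1 UMI, so UMI counts were recovered and summed over cells. Columns after the first restart of alphabetical barcode order (9062 of 20269) were used only in 1 alternative; columns of other samples not used numbered 0. Total UMIs ran from 2283739 to 23496529 a library.

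Cells were clustered with scanpy 1.11.5 and leidenalg 0.10.2 without the 34 genes (2000 variable genes, 20 principal components, 15 neighbours, resolution 0.3, then 1 for myogenic cells, 10 starts). A cluster was named "-like" where 3 markers were 2-fold higher and in 25% of its cells. Rebuilt names can differ from the study's. No doublet caller was run; an alternative left out non-muscle cells with UMIs of 3 myocyte markers. Ratios carry exact 95% intervals (Poisson for levels, binomial for ratios, Clopper-Pearson for shares); with 1 library per group no test of conditions was made. All members are named, and other fibre genes where they passed 2-fold, at least 20 UMIs and an interval without 1, or as myosins. The members and lists were chosen with earlier results of these data known. *Myl2*, *Myl3*, *Myh7*, *Cdh4*, *Retnlg* and *Cxcr2* were not analysed here. Promoters were RefSeq sequences of GRCm38.p6. Scripts were tested on simulated data and used matplotlib 3.10.9, igraph 0.11.9, scikit-learn 1.9.0, anndata 0.12.19, pandas 2.3.3, scipy 1.17.1 and numpy 2.4.6 under Python 3.11.15.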

Additional observations from a re-analysis of the deposited data

Results flagged for a closer look

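The hypothyroid-to-control ratio of *Actn3* in myocyte-like cells was above 1 uninjured (2.05) and below 1 at 14 dpi (0.317), opposite directions on the 2 days, and the difference was not tested.

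Fibre genes were also counted in the columns that follow the restart of barcode order, which the comparisons do not use. Their share of UMIs was 0.657% in the later columns of the control NI file, which are cells of the hypothyroid 14 dpi library, against 1.34% in its first columns. In the control 5 dpi file it was 1.96% against 0.306%, and in the control 14 dpi file 1.17% and 0.697% in the second and last stretch against 1.95% in the first. In the hypothyroid NI file it was 0.386%, in cells of the control 5 dpi library, against 3.64%, and in the hypothyroid 5 dpi file 3.46% and 0.265% against 0.106%. *Sln* was at 166 CPM in the last stretch of the control 14 dpi file and at 168 CPM over the hypothyroid 14 dpi library.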

How the results depend on the processing

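Of 1943 ratios recomputed under another setting, 193 lay on the other side of 1, in 33 of them with a value past 2-fold in either setting, and the values called turned below are those 33. The summed ratio in myocyte-like cells also crossed 1, at 14 dpi with 30 principal components (1.11) and uninjured in cells chosen by 4 myocyte markers (0.985), as did that of endothelial-like (1.13) and mural-like cells (1.02) taken apart at 5 dpi. No paired analysis was possible because the labels give no replicate numbers and each group is 1 library. *Sln* and *Pvalb* at 14 dpi kept direction and 2-fold size in 12 of 12 alternatives. The setting with all columns of each file has the limit given below. Few myocyte-like cells at 5 dpi and in hypothyroid 14 dpi limit the precision, and the cause of each change below was not tested. Alternatives that drop 1 cell, keep 1 subcluster or split mural from endothelial cells were chosen after seeing the data.

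With the members kept in the clustering, 1 member was higher and 24 lower at 14 dpi in myocyte-like cells, where the summed ratio was 0.339 and ratios turned for *Acta1* (0.450), *Actc1* (0.0643), *Tpm2* (0.268), *Tcap* (0.417), *Neb* (0.398), *Ttn* (0.766), *Ankrd23* (0.186) and *Apobec2* (0.350). Over time in hypothyroid cells 1 was higher and 25 lower, with *Actc1* (0.162), *Neb* (0.268) and *Ankrd23* (0.685) turned, and the lymphoid-like NI sum was 1.83. With 30 principal components 0 were higher at NI, 6 were higher and 2 lower at 14 dpi, 3 were lower over time in hypothyroid cells, *Actc1* turned at 14 dpi (0.272) and over time (0.841), and NI sums were 1.98 in endothelial and mural and 1.83 in lymphoid-like cells. At resolution 0.6, 3 were higher and 1 lower at NI, 4 lower at 14 dpi, 2 higher and 9 lower over time in hypothyroid cells and 24 lower in progenitors at 5 dpi, with *Actc1* (0.0917 at 14 dpi, 0.310 over time) and *Ttn* (0.642, 0.929) turned.

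Using all columns of each file mixes conditions in both NI pools, whose later columns are cells of other libraries. It is therefore no check of NI results or of changes from NI. The later columns of both 5 dpi files and of the control 14 dpi file equal no cell used here, and their condition is not known. Fibre genes took 1.96% of UMIs in those of the control 5 dpi file, against 0.306% in its first columns. In the hypothyroid 5 dpi file they took 3.46% and 0.265%, against 0.106%. Values at 5 and 14 dpi with all columns may therefore mix conditions too. With all columns of each file 2 members were higher at NI, where *Ankrd23* turned (0.494), 1 higher and 5 lower at 14 dpi, where *Actc1* (0.201) and *Ttn* (0.825) turned, and 2 higher over time in each diet, where *Sln* turned in control (0.433) and *Actc1* (0.421), *Neb* (0.388) and *Ttn* (0.923) in hypothyroid cells. Sums were then 0.512 in FAP-like cells at 5 and at 14 dpi, 1.31 and 0.263 in endothelial and mural cells at NI and 5 dpi, and 0.660, turned, and 0.637 in lymphoid-like cells at NI and 5 dpi. With cells chosen by 4 myocyte markers 5 were lower at NI, 5 higher and 1 lower at 14 dpi, and 2 higher and 19 lower over time in control, where *Neb* turned (0.441).

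With CPM over other genes, or ratios divided by their median, 4 were higher and 1 lower at NI, and in the latter 2 lower over time in control. With 1 UMI taken as the smallest value, 2 were higher and 1 lower at NI and the endothelial and mural NI sum was 1.83. With at least 100 UMIs, 1 was lower at NI, 2 over time in control and 9 in progenitors at 5 dpi. At 1.5-fold, 11 were higher and 4 lower at NI, 7 and 17 at 14 dpi, 8 lower over time in control and 7 higher in hypothyroid cells. With means over cells of log2(CPM + 1), 4 were higher at NI, 5 higher and 13 lower at 14 dpi, 7 higher and 8 lower over time in control, 7 higher in hypothyroid cells and 9 lower in progenitors at 5 dpi, *Actc1* (0.827) and *Pygm* (2.01) turned at 14 dpi and *Pygm* over time (1.35), and the endothelial and mural sum at 5 dpi was 0.313.

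Without the cell of each pool with the most UMIs, 0 were higher at NI and 14 lower at 14 dpi. Within 1 subcluster 0 were lower at NI and 20 at 14 dpi, where *Ankrd23* turned (0.169) and the sum was 0.459, and 5 were lower over time in hypothyroid cells, where *Actc1* (0.1301) and *Ttn* (0.807) turned, as did *Ppp1r27* in control (2.07). Mural-like cells apart had a 14 dpi sum of 0.802. The ratio of the share of cells with an *Acta1* UMI was 0.416 in FAP-like cells at 5 dpi and 2.01 in lymphoid-like cells at NI when thinned to 500 UMIs, and 0.969 in lymphoid-like cells at 14 dpi without thinning.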
